A study of Arabidopsis thaliana with 42 samples.

Results

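Roots of wild type Arabidopsis thaliana (ecotype Columbia) kept for 1 week at 0.05 µM zinc sulfate (low zinc) were compared with wild type roots kept at 2 µM (normal zinc), with 4 arrays in each group. These 8 arrays, of 42 in the series, were chosen by tissue, genotype and zinc supply as the sample labels give them, and no measured value entered the choice. All plants had first grown for 3 weeks at 2 µM in hydroponic culture and were 4 weeks old at harvest, and the roots of 6 plants from 2 containers were pooled for each sample. Beside them stand 4 low zinc and 4 normal zinc root arrays of a double mutant (bzip19 bzip23) with a T-DNA insertion in each of both genes, 4 wild type root arrays at 25 µM (excess zinc), and 3 low zinc and 3 normal zinc arrays of wild type shoots. Each array is an Affymetrix ATH1 chip, which reads a gene through a set of short probes, and each value is 1 normalised log2 expression value per probe set, so that a difference of 1 is a doubling. The labels do not tell whether replicates were separate cultures, and p-values then measure only the spread between these samples, which may be technical.

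Zinc is a structural and catalytic component of many proteins, and roots short of it raise the expression of membrane transporters that take it up. In Arabidopsis the transcription factors bZIP19 and bZIP23 bind zinc themselves and, when it is scarce, switch on a small set of genes. That set holds transporters of the ZIP family, nicotianamine synthases, whose product chelates metals inside the plant, and a pair of defensin-like proteins. The comparison asks which transcripts of wild type roots responded to 1 week of low supply, and the double mutant asks which of these responses took place without the pair of factors.

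The low zinc and the normal zinc root arrays carry different array dates in both genotypes, so date and zinc supply cannot be told apart in the roots of either. A shift that the date adds equally to both genotypes cancels in the difference of their responses, and the low and normal zinc shoot arrays share 1 date. All 18 hybridisation control probe sets, which read bacterial RNA added to every sample, had lower means on the 8 low zinc root arrays than on the 8 normal zinc root arrays of both genotypes, with a median difference of -0.25 (log2). The 3′ minus 5′ difference of the actin control, a measure of RNA integrity and labelling, ran from 1.293 to 1.501 on the wild type low zinc arrays and from 1.123 to 1.244 on the wild type normal zinc arrays, without overlap. In the mutant it ran from 1.173 to 1.663 at low zinc and from 1.195 to 1.681 at normal zinc. The same difference of the GAPDH control overlapped in the wild type, at 0.1406 to 0.3204 at low zinc and 0.0374 to 0.2289 at normal zinc. Wild type arrays correlated with the others of their group at 0.995 to 0.997 at low zinc and at 0.991 to 0.995 at normal zinc, the lowest being normal zinc replicate 1. The part of date, control signal and RNA integrity in the results was not tested beyond the values given beside them.

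Of 22746 probe sets tested with limma in wild type roots, 30 were called at a Benjamini-Hochberg adjusted p under 0.05 (0.132%), 19 higher at low zinc (0.0835%) and 11 lower (0.0484%). Only 9 of the 30 differed by 2-fold or more, and the smallest called difference was 0.34 on the log2 scale. The middle 95% of all differences lay between -0.30 and 0.33, with a median of -0.00436. Without a multiple-test adjustment, 2079 probe sets had a p under 0.05 and 143 had one under 0.001. The count moved with the arrays and weights in the fit. It was 164 with the 8 arrays alone, 70 with all 42 arrays and 999 with array quality weights. It was 19, 17 or 17 without low zinc replicate 1, 2 or 4, and 66 without normal zinc replicate 1. It was 15, 16 or 15 without normal zinc replicate 2, 3 or 4, and 78 without excess zinc replicate 2, which enters only through the shared estimate of the spread. Of the 30 calls, 11 lay on a probe set paired with 1 gene, 1 on a probe set shared by 2 genes, and 18 on probe sets without a gene name in the tables used. The unnamed ones are called probe sets A to R here, in order of their adjusted p.

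The strongest rise by size belonged to AT3G59930 and AT5G33355, which 1 probe set reads together, the defensin-like genes of the bZIP19/bZIP23 set. Its log2 values were 13.88, 14.00, 14.06 and 13.92 at low zinc, against 11.63, 11.66, 11.34 and 11.32 at normal zinc. All low zinc arrays were higher than all normal zinc arrays, with a gap of more than 2 log2 units. The group means were 13.96 ± 0.08 at low zinc and 11.49 ± 0.18 at normal zinc (SD, n = 4 each), a 5.56-fold rise with a log2 difference of 2.48 (SE 0.23, limma adjusted p 1.44e-06). Which of the 2 genes gave the signal cannot be read from a shared probe set. In a bulk root sample, a change in the share of the cells that express a gene and a change in its RNA per cell cannot be told apart either, here and in what follows.

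ZIP9 (AT4G33020), a zinc transporter of the ZIP family and a known target of the pair of factors, also rose. Its values were 7.29, 7.17, 7.36 and 7.36 at low zinc, against 6.29, 6.28, 6.71 and 6.47 at normal zinc. The groups did not overlap, with means of 7.30 ± 0.09 at low zinc and 6.44 ± 0.20 at normal zinc (SD, n = 4 each). The rise was 1.81-fold, with a log2 difference of 0.86 (SE 0.15, limma adjusted p 0.0112). The call was lost without low zinc replicate 4 (log2 difference 0.84, adjusted p 0.0511) and without normal zinc replicate 2 (0.81, adjusted p 0.0683), and with the 12 wild type root arrays alone (adjusted p 0.0704). ZIP9 was the only one of the 12 genes listed for the pair of factors that lay on a probe set of its own with a gene name. ZIP1, ZIP3, ZIP4, ZIP5, ZIP10, ZIP12, IRT3, NAS2 and NAS4 could not be read by name.

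The transcript of bZIP19, the factor disrupted in the mutant, checks the labels. It averaged 9.88 in wild type roots at low zinc and 9.86 at normal zinc, a log2 difference of 0.02 (SE 0.14, adjusted p 0.99) in the wild type. In the double mutant it lay between 4.35 and 5.17 on the 8 low and normal zinc arrays, far below every wild type array. bZIP23 had no named probe set of its own. BZIP24, a relative known from the salt response, stood at 6.51, 6.87, 6.06 and 6.52 at low zinc and at 6.28, 6.25, 6.16 and 6.23 at normal zinc, with overlapping groups (log2 difference 0.26, adjusted p 0.681). ZIP6, another member of the transporter family, had 8.84, 9.00, 8.86 and 8.92 at low zinc and 8.68, 8.46, 8.66 and 8.51 at normal zinc. Its groups did not overlap, but the difference of 0.33 (SE 0.10) did not pass the test (adjusted p 0.238). Of 12 listed genes of zinc efflux and sequestration only 2 could be read by name, and neither passed it. MTPA1 (MTP2), a metal transporter of internal membranes, had a log2 difference of 0.15 (adjusted p 0.594) and was dim, with all 8 wild type values between 4.14 and 4.45. AT3G58060 (MTP8), known as a manganese and iron transporter of the vacuole, had a difference of -0.22 (adjusted p 0.817).

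**Figure D1:**
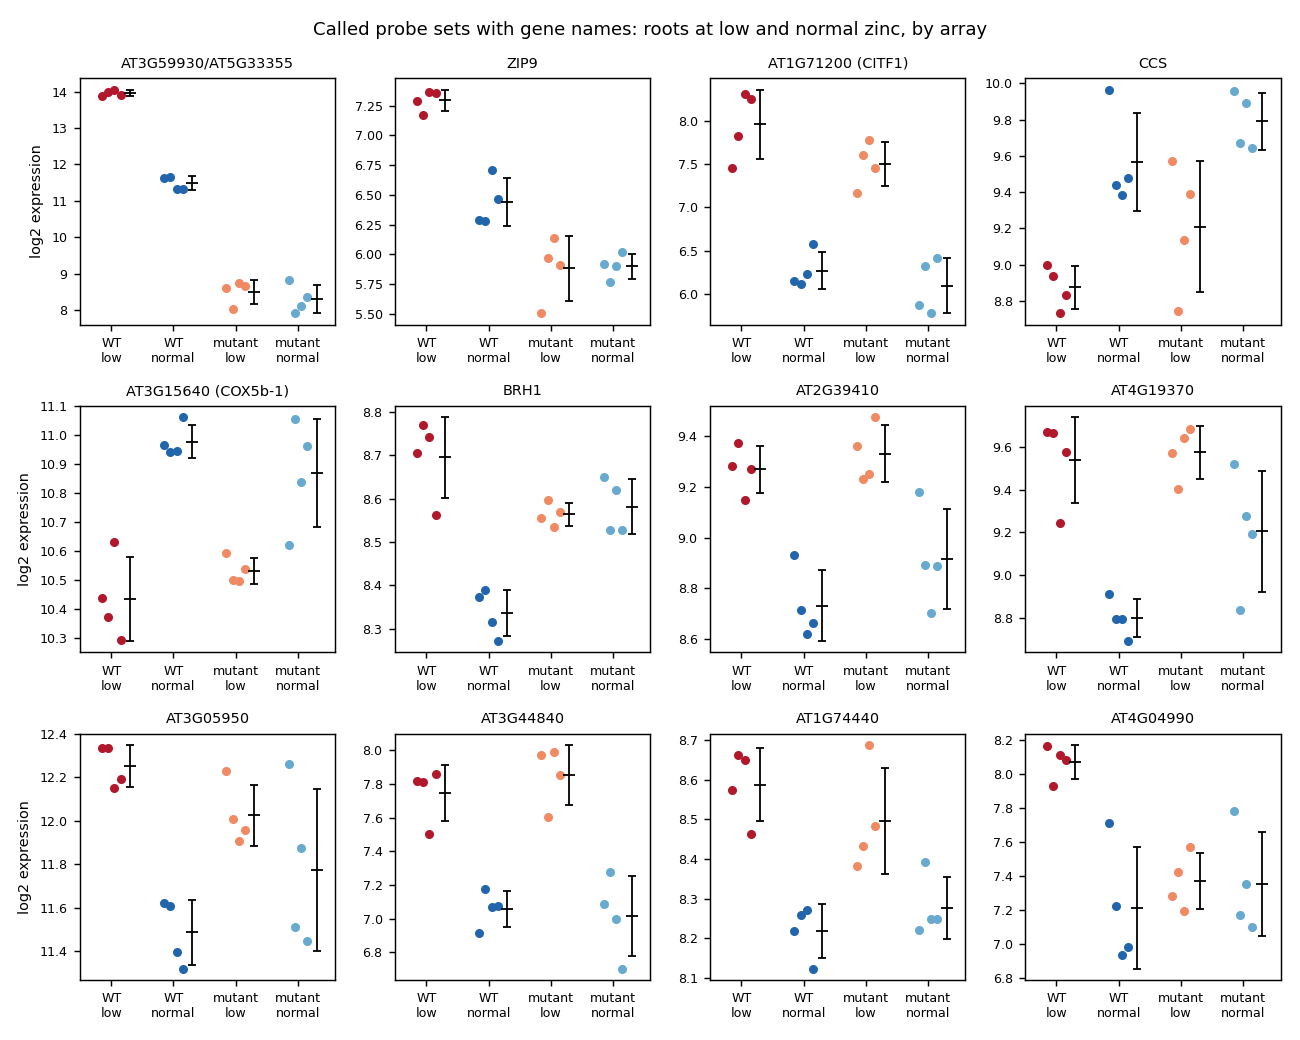
Log2 expression by array of the 12 called probe sets with gene names, in roots of wild type (WT) and double mutant at low and normal zinc. Each point is 1 array, and horizontal ticks with bars give the mean and SD of 4 arrays. Each panel has its own vertical range. The 2 wild type groups do not overlap in any panel, but the calls were made on these same arrays.

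Both genes of the copper list that could be read by name were called, in opposite directions, beside 0.132% of all probe sets. The list held 16 genes, of which 2 were measured. It was chosen with earlier results of these data known, so the count adds no support of its own. AT1G71200 (CITF1), a basic helix-loop-helix transcription factor that acts in copper uptake, had 7.45, 7.82, 8.30 and 8.25 at low zinc, against 6.15, 6.12, 6.23 and 6.58 at normal zinc. All low zinc arrays were higher than all normal zinc arrays, and the rise was 3.22-fold, with a log2 difference of 1.69 (SE 0.17, limma adjusted p 5.64e-06). CCS (AT1G12520), the copper chaperone that loads superoxide dismutase with its metal, had 9.00, 8.94, 8.73 and 8.83 at low zinc, against 9.97, 9.44, 9.38 and 9.48 at normal zinc. It fell by 0.69 on the log2 scale (SE 0.14, adjusted p 0.0434), 1.61-fold. Normal zinc replicate 1 stood above the other arrays of its group. The CCS call was close to the threshold and was lost when any 1 of the 8 arrays was left out, with log2 differences from -0.75 to -0.56 and adjusted p-values from 0.06 to 0.152, and with all 42 arrays (adjusted p 0.0665).

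Cytochrome c oxidase is the copper enzyme at the end of the mitochondrial respiratory chain. Of its 7 nuclear subunit genes measured, of 14 listed, 1 fell and 6 did not pass the test. Among all probe sets, 0.0484% were called lower. The median log2 difference was 0.01 over the 7 and -0.00436 over all probe sets. The one called was AT3G15640 (COX5b-1), with 10.44, 10.37, 10.63 and 10.29 at low zinc, against 10.96, 10.94, 10.94 and 11.06 at normal zinc. It fell by 0.55 on the log2 scale (SE 0.08, limma adjusted p 0.00339), or 1.46-fold, with no overlap of the groups. Its close relative AT1G80230 (COX5b-2) had 10.21, 10.30, 10.42 and 10.35 at low zinc and 10.28, 10.44, 10.62 and 10.57 at normal zinc. That difference of -0.16 (SE 0.10) did not pass the test (adjusted p 0.686). The other subunits lay between a difference of -0.08 for AT3G62400 (COX5c-2) and one of 0.23 for AT5G61310 (COX5c-3).

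The remaining 7 named calls were all rises, and none of their groups overlapped. The calls were made on the same arrays, so this separation adds no support of its own. Over all probe sets, the groups did not overlap for 6.86%. AT3G05950, a germin-like protein of the cupin fold, had 12.33, 12.34, 12.15 and 12.19 at low zinc, against 11.62, 11.61, 11.40 and 11.32 at normal zinc (1.70-fold, adjusted p 0.024). AT3G44840, a methyltransferase of the family that makes methyl esters of plant hormones and other small acids, had 7.82, 7.81, 7.50 and 7.86 at low zinc, against 6.91, 7.17, 7.07 and 7.08 at normal zinc (1.61-fold, adjusted p 0.0282). Low zinc replicate 3 lay below the other 3 of its group but above every normal zinc array. AT2G39410, an alpha/beta hydrolase, had 9.28, 9.37, 9.15 and 9.27 at low zinc, against 8.93, 8.71, 8.62 and 8.66 at normal zinc (1.45-fold, adjusted p 0.0136). BRH1, a RING-H2 protein whose transcript is known to respond to brassinosteroids, had 8.71, 8.77, 8.74 and 8.56 at low zinc, against 8.37, 8.39, 8.31 and 8.27 at normal zinc. The rise was 1.28-fold, the smallest of the named calls, with an adjusted p of 0.00591.

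The other 3 are named by locus only. AT4G19370 had 9.67, 9.67, 9.24 and 9.57 at low zinc, against 8.91, 8.80, 8.80 and 8.69 at normal zinc (1.67-fold, adjusted p 0.0229). AT4G04990 had 8.17, 7.93, 8.11 and 8.08 at low zinc, against 7.71, 7.22, 6.93 and 6.98 at normal zinc (1.82-fold, adjusted p 0.048). AT1G74440 had 8.57, 8.66, 8.65 and 8.46 at low zinc, against 8.22, 8.26, 8.27 and 8.12 at normal zinc (1.29-fold, adjusted p 0.0437). Normal zinc replicate 1 was the highest of its group for AT4G04990. When 1 of the 8 arrays was left out in turn, the call of BRH1 held each time, but it was lost with the 12 wild type root arrays alone (adjusted p 0.0757) and with all 42 arrays (adjusted p 0.398). The calls of AT2G39410, AT3G05950 and AT4G19370 were lost without low zinc replicate 1, 2 or 4 or without normal zinc replicate 2, 3 or 4, with adjusted p-values up to 0.0893, 0.136 and 0.119. AT3G44840 was lost without each array but low zinc replicate 3 (up to 0.133), AT4G04990 without each but normal zinc replicate 1 (up to 0.201), and AT1G74440 without each but low zinc replicate 4 (up to 0.213). These 3 and AT4G19370 were lost with the 12 wild type root arrays alone too, and with the actin difference as a covariate, as was AT3G05950 with the covariate. The log2 differences of these 7 stayed between 0.33 and 1.03 in all of the alternatives.

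Among the unnamed calls were several that differed more clearly than most named ones. Probe set A (260462_at) had 9.02, 9.11, 9.22 and 9.35 at low zinc, against 7.39, 7.40, 7.75 and 7.70 at normal zinc, a 3.07-fold rise (log2 difference 1.62, SE 0.10) with the smallest adjusted p of the comparison (limma, 1.28e-09). Probe set B (264574_at) had 8.08, 8.70, 7.97 and 8.29 at low zinc, against 7.03, 6.65, 6.74 and 6.67 at normal zinc, a 2.81-fold rise. Probe set D had 12.11, 12.02, 11.94 and 12.24 at low zinc, against 10.34, 10.32, 10.96 and 10.56 at normal zinc, a 2.90-fold rise. In all 3 of these probe sets the lowest low zinc array stood well above the highest normal zinc array. Probe set E had 10.76, 10.86, 10.56 and 10.96 at low zinc, against 10.15, 10.07, 9.96 and 10.05 at normal zinc (1.66-fold). Probe set G had 11.19, 11.44, 11.20 and 11.37 at low zinc, against 9.79, 10.16, 10.60 and 10.12 at normal zinc (2.19-fold).

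Falls of similar size were seen on other unnamed probe sets. Probe set C (264809_at) had 11.47, 11.46, 11.07 and 11.18 at low zinc, against 12.95, 12.59, 12.75 and 12.76 at normal zinc, a 2.76-fold fall. Probe set F (266165_at) had 9.58, 9.58, 9.39 and 9.28 at low zinc, against 11.03, 10.73, 10.85 and 10.79 at normal zinc, a 2.63-fold fall. Both were clear of overlap by more than 1 log2 unit. Probe set N had the largest fall of the 30, with 10.49, 10.44, 11.01 and 10.45 at low zinc, against 11.52, 12.41, 12.37 and 12.41 at normal zinc (2.99-fold, adjusted p 0.0335). An array stood apart in each of its groups, low zinc replicate 3 on the high side and normal zinc replicate 1 on the low side, each toward the other group. The call of N was lost in 8 of 20 alternatives: without low zinc replicate 1, 2 or 4 or normal zinc replicate 2, 3 or 4 (adjusted p 0.114 to 0.151), with trend and robust eBayes (0.0644) and with the actin covariate (0.153). The other unnamed calls had log2 differences from 0.52 to 0.79 where they rose (probe sets H, K, O and P) and from -0.97 to -0.34 where they fell (I, J, L, M, Q and R). A to H were among the 11 calls that held under every alternative that tested them, together with AT3G59930/AT5G33355, AT1G71200 and AT3G15640.

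In roots of the double mutant the same contrast, on the same pair of array dates, gave 11 calls (0.0484%), 9 higher and 2 lower at low zinc. The count was 31 without mutant normal zinc replicate 1, 6 and 5 without replicates 3 and 4 of that group, 5 without mutant low zinc replicate 3, and 21 without wild type excess zinc replicate 2. Of the 30 wild type calls, 5 were called in the mutant too, all in the same direction: AT1G71200, AT3G44840 and probe sets C, F and G. The mutant call of AT3G44840 was lost without mutant low zinc replicate 3 or normal zinc replicate 4 (adjusted p 0.0577 and 0.0563), and that of probe set G without mutant low zinc replicate 2, 3 or 4 or normal zinc replicate 3 or 4 (up to 0.161). With the 8 mutant arrays alone, AT3G44840, C, F and G all lost their mutant calls (adjusted p 0.0724, 0.0629, 0.122 and 0.0724), and G lost it also with all 42 arrays (0.102) and with the replicate block (0.0595). They made up 5 of the 11 mutant calls. A same sign was found in the mutant for 27 of the 30, compared with 59.6% of all probe sets, whose 2 contrasts share the difference of dates. For 18 of the 30 the mutant difference was less than 0.5 times the wild type difference. The 30 were called on their wild type difference, so a smaller mutant difference follows in part from that choice.

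Of the copper genes, AT1G71200 was called in the mutant too and CCS was not, and some other wild type calls were shared. AT1G71200 (CITF1) had 7.17, 7.60, 7.77 and 7.45 in low zinc mutant roots, against 5.87, 6.32, 5.78 and 6.41 in normal zinc mutant roots. That is a 2.64-fold rise in the double mutant (adjusted p 0.00055), and the responses of the genotypes differed by 0.28 (SE 0.24, adjusted p 1). For a change seen in both genotypes, zinc supply and array date cannot be told apart in these roots. AT3G44840 had 7.97, 7.60, 7.99 and 7.85 in low zinc mutant roots, against 7.09, 7.28, 7.00 and 6.70 in normal zinc mutant roots, a 1.79-fold rise (adjusted p 0.00666). Probe sets C and F fell by 0.96 and 1.02 on the log2 scale in the mutant (adjusted p 0.00055 and 0.00362), against -1.47 and -1.39 in the wild type. CCS had a mutant difference of -0.58 (adjusted p 0.139) and AT3G15640 one of -0.34 (adjusted p 0.156), neither of which passed the test.

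ZIP9 had 5.50, 5.97, 6.14 and 5.91 in low zinc mutant roots, and 5.92, 5.76, 5.90 and 6.02 in normal zinc mutant roots. The mutant groups overlapped fully, with a log2 difference of -0.02 (adjusted p 1), and all 8 mutant arrays lay below every wild type array. The difference of the ZIP9 responses, wild type minus mutant, was 0.88 (SE 0.21) but did not pass the test over all probe sets (adjusted p 0.828). The probe set of AT3G59930 and AT5G33355 had 8.60, 8.02, 8.74 and 8.67 in low zinc mutant roots, and 8.82, 7.91, 8.11 and 8.35 in normal zinc mutant roots. All 8 mutant arrays lay below every wild type array at either supply, and the mutant groups overlapped (log2 difference 0.21, adjusted p 0.977). Here the responses of the genotypes differed by 2.27 (SE 0.33, limma adjusted p 0.00428).

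Only 4 probe sets passed the test of the difference of the responses (0.0176% of all tested). All 4 were among the 30 wild type calls, an overlap partly built in, since the difference contains the wild type contrast. Besides AT3G59930/AT5G33355 they were probe set A (difference of responses 1.58, SE 0.14, adjusted p 1.98e-06), probe set B (1.48, SE 0.17, adjusted p 0.000142) and probe set E (0.63, SE 0.11, adjusted p 0.0357). Probe set A stood at 6.48, 6.30, 6.57 and 6.32 in low zinc mutant roots and at 6.49, 6.19, 6.50 and 6.35 in normal zinc mutant roots, and probe set B at 5.10, 5.22, 5.22 and 5.20 and at 5.15, 5.18, 5.22 and 5.13. The mutant groups overlapped for both, and all 8 mutant arrays were lower than every wild type root array at either supply. The call of probe set E was lost in 16 of 26 alternatives, among them each setting without wild type low zinc replicate 1, 2 or 4 or without wild type normal zinc replicate 2, 3 or 4, and those without a mutant array other than low zinc replicate 1 or 4, with adjusted p-values up to 0.259. Probe set D differed by 0.97 in its responses (adjusted p 0.113), with a mutant log2 difference of 0.57 (adjusted p 0.117). The 26 wild type calls outside these 4 did not pass the test of the difference, which does not show that the genotypes responded alike.

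**Figure D2:**
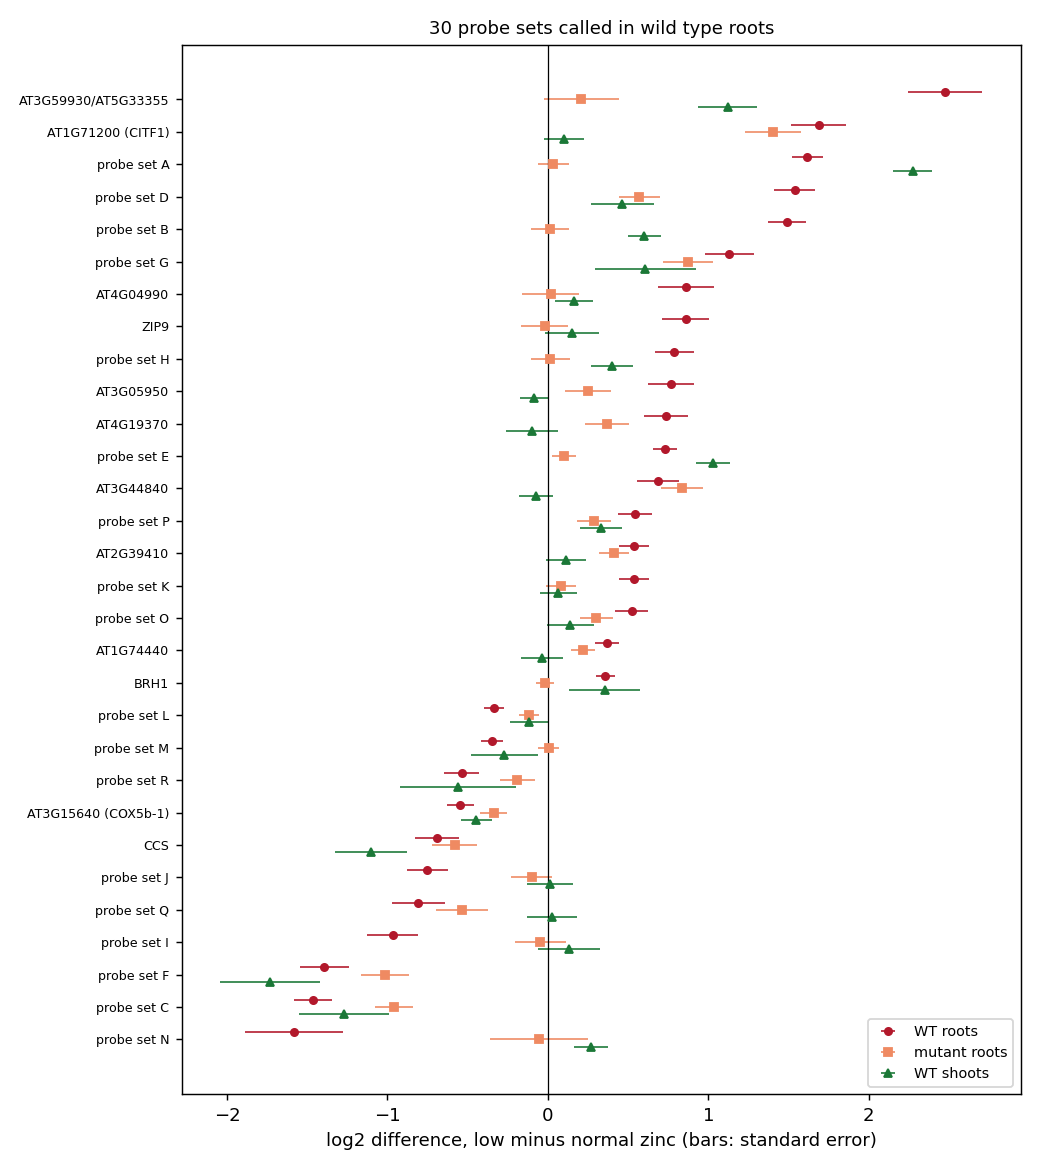
Log2 difference of low minus normal zinc, with its standard error, for the 30 probe sets called in wild type (WT) roots, shown for wild type roots, double mutant roots and wild type shoots. The wild type root values were the ones called; probe sets C, F and G and AT1G71200 (CITF1) lie on the same side in both genotypes, while probe sets A, B and H, ZIP9 and AT4G04990 lie near 0 in the mutant.

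Among the 6 wild type shoot arrays, low zinc replicate 1 stood apart. Its actin 3′ minus 5′ difference was 6.116, against 1.431 to 1.684 on the other 5, and its poly-A controls averaged 6.761, against 8.348 to 9.011. In these shoots, where low and normal zinc arrays share 1 date, 160 probe sets were called (0.703%) with all arrays and 153 (0.673%) without that one. The count was 145 and 77 without low zinc replicates 2 and 3, and 96, 39 and 95 without normal zinc replicates 1, 2 and 3, settings chosen after the data were seen. Called there or not, 22 of the 30 root calls had the same sign in shoots. The share of all probe sets with the same sign in both tissues was not computed, so this count is not read as agreement. Of the 30 root calls, 8 were called in shoots as well, all in the same direction, which is 26.7% of the root calls and 5% of the shoot calls. These were AT3G59930/AT5G33355, CCS, AT3G15640 and probe sets A, B, C, E and F. Without low zinc shoot replicate 1 there were 7, with AT3G15640 lost (log2 difference -0.46, adjusted p 0.0671). Probe sets A and E held whichever of the 6 arrays was left out. AT3G59930/AT5G33355 and probe set B were lost only without normal zinc replicate 2, CCS and F without 4 of the 6 in turn, C without 5 and AT3G15640 without any 1. CCS averaged 7.99 in low zinc shoots and 9.10 in normal zinc shoots (n = 3 each), a difference of -1.103 on the log2 scale (limma adjusted p 0.0299) and of -1.24 without low zinc replicate 1 (adjusted p 0.0257). AT3G15640 had a difference of -0.45 there (adjusted p 0.0386), and AT3G59930/AT5G33355 rose by 1.12 (adjusted p 0.00734), or 1.02 without that array (adjusted p 0.0257). Probe set A rose by 2.27, or 2.33 without it, with means of 9.60 in low zinc shoots and 7.33 in normal zinc shoots. By contrast, AT1G71200 averaged 5.55 in low zinc shoots and 5.45 in normal zinc shoots (adjusted p 0.835), and ZIP9 5.72 and 5.57 (adjusted p 0.809), and neither was called without low zinc replicate 1 (adjusted p 0.879 and 0.754). Whether the root and shoot responses of these 2 genes differ was not tested.

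Wild type roots at 25 µM zinc were set beside the low and normal zinc roots. The excess zinc arrays share the array date of the normal zinc arrays, while the low zinc arrays carry another. The step between low and normal zinc therefore cannot be told apart from date, here and for ZIP9 below. The excess zinc contrast shares its normal zinc arrays with the low zinc contrast, so its values are given side by side without a count of agreement, and it called 2206 probe sets (9.70%). AT3G59930/AT5G33355 averaged 13.96 at low, 11.49 at normal and 8.64 at excess zinc, a difference of -2.85 between excess and normal. Its excess zinc arrays, at 8.53, 7.79, 8.88 and 9.35, overlapped the mutant root arrays. AT1G71200 averaged 7.96, 6.27 and 5.49 in the same order, and neither gene had overlapping neighbours along the 3 supplies. Probe sets A, B, D and E had the same order, with D at 12.08, 10.54 and 8.62. Probe set C ran the other way, at 11.30 at low, 12.76 at normal and 13.53 at excess zinc, and CCS too, at 8.87, 9.57 and 10.15.

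ZIP9 did not follow that order. It averaged 7.30 ± 0.09 at low, 6.44 ± 0.20 at normal and 7.44 ± 0.40 at excess zinc (SD, n = 4 each), and its excess zinc arrays at 7.71, 7.85, 7.05 and 7.17 overlapped the low zinc arrays. Against normal zinc, the excess zinc difference of 1.01 passed the test (limma adjusted p 8.97e-05). AT4G19370, AT3G05950 and AT3G44840 likewise had their lowest mean at normal zinc, with excess minus normal differences of 0.84, 0.75 and 0.58 and low minus normal differences of 0.74, 0.77 and 0.69.

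**Figure D3:**
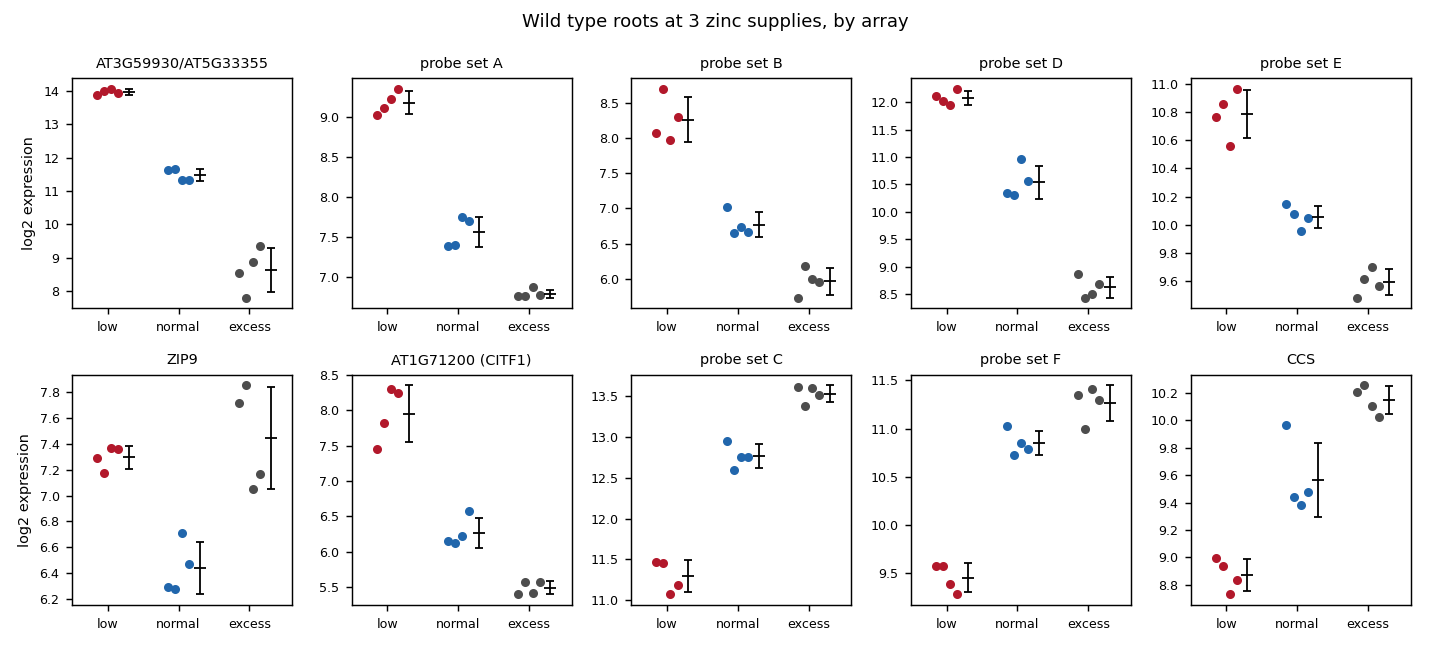
Log2 expression by array in wild type roots at low (0.05 µM), normal (2 µM) and excess (25 µM) zinc for 10 called probe sets. Points are arrays, ticks with bars the mean and SD of 4 arrays, and each panel has its own vertical range. The low zinc arrays carry another array date than the normal and excess zinc arrays. AT3G59930/AT5G33355, AT1G71200 (CITF1) and probe sets A, B, D and E were lower at each higher supply, probe sets C and F and CCS were higher, with F overlapping between normal and excess zinc, and ZIP9 was lowest at normal zinc.

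Large differences also stood among genes that were not called. The 1561 probe sets whose 2 groups did not overlap (6.86% of those tested, with 3.38% higher and 3.48% lower at low zinc) included several with larger differences than most calls. PDC2, a pyruvate decarboxylase that feeds ethanol fermentation, had 7.76, 7.77, 8.48 and 8.13 at low zinc, against 8.65, 10.05, 10.09 and 10.34 at normal zinc (log2 difference -1.75, SE 0.41, adjusted p 0.101). AT4G31020 had 6.71, 6.48, 6.63 and 6.58 at low zinc, against 6.77, 8.46, 8.67 and 8.43 at normal zinc (log2 difference -1.48, adjusted p 0.213). PDC2 was called with the 8 arrays alone (adjusted p 0.0372), and both genes with all 42 arrays (0.0114 and 0.0483). In both, normal zinc replicate 1 stood apart from the other 3 and next to the low zinc arrays.

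The hypoxia list, genes that rise in plants short of oxygen, had 4 of its 14 genes measured, and none was called in the main fit. With array quality weights, which called 999 probe sets, all 4 were called (limma adjusted p 0.00314 to 0.0465). With all 42 arrays AT3G10040 and AT3G27220 were called (0.019 and 0.0384). All 4 were lower at low zinc, with a median log2 difference of -1.72 in the wild type and -0.05 in the mutant, beside -0.00436 and -0.00587 over all probe sets. AT3G10040 (HRA1), a transcription factor that damps that response, had 7.65, 7.78, 8.75 and 7.91 at low zinc and 8.73, 9.99, 9.75 and 10.06 at normal zinc (log2 difference -1.61, SE 0.41, adjusted p 0.135), and was called with the 8 arrays alone (adjusted p 0.0415). The mean of the 4 genes was 8.07, 8.17, 9.13 and 8.38 on the wild type low zinc arrays, against 8.75, 10.58, 10.55 and 10.79 on the wild type normal zinc arrays. Normal zinc replicate 1 lay inside the low zinc range, and the other 3 normal zinc arrays lay above every low zinc array. The mutant values at low zinc, 8.52, 10.22, 8.59 and 6.28, spread more widely than the wild type ones (SD 1.62 against 0.48). At normal zinc the mutant values were 8.26, 9.58, 8.40 and 7.66 (SD 0.80, against 0.95 in the wild type).

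Without wild type normal zinc replicate 1, 66 probe sets were called (0.29%), 41 higher and 25 lower, of which 24 were among the 30. They held 32 probe sets with 1 gene name, 24 of them not called with all arrays. For PDC2, AT4G31020 and the hypoxia genes, the array left out lay next to or among the low zinc arrays. Its removal by itself widens their differences. PDC2 (log2 difference -2.13, adjusted p 0.0232), AT4G31020 (-1.92, adjusted p 0.0338) and AT3G27220 of the hypoxia list (-1.78, adjusted p 0.0447) passed the test in this setting. So did AT1G47400 (IMA1, -1.35, adjusted p 0.0291) and AT5G05250 (-0.98, adjusted p 0.031), both of the iron list. Of the plastid-encoded genes, psaI (1.68, adjusted p 0.0232), psaJ (0.78, adjusted p 0.0361) and accD (1.33, adjusted p 0.0401) passed it as well. The 6 named or lettered calls lost in it were CCS, AT3G44840, AT1G74440 and probe sets M, Q and R.

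Zinc and iron share transporters and chelators in roots, and genes of the iron deficiency response were therefore listed. Of 31 listed genes 14 were measured, on 15 probe sets, and none was called in wild type roots. At low zinc 13 of the 15 were lower, beside 11761 of all 22746 probe sets. The median log2 difference was -0.16 (-0.17 in the mutant), beside -0.00436 (-0.00587 in the mutant) over all probe sets. AT1G47400 (IMA1), a small peptide that promotes iron uptake, had 5.75, 5.99, 5.89 and 5.64 at low zinc, against 6.14, 7.79, 7.04 and 6.68 at normal zinc (log2 difference -1.09, SE 0.27, adjusted p 0.128). Its groups did not overlap, and normal zinc replicate 1 was again the array nearest to the low zinc ones. AT1G47400 was also called with array quality weights (limma adjusted p 0.00129) and without excess zinc replicate 2 (0.0427). With array quality weights AT5G05250 was called too (0.00756). AT5G05250 had a difference of -0.72 (adjusted p 0.268), AT3G07720 one of -0.43 (adjusted p 0.577) and AT1G73120 one of -0.38 (adjusted p 0.824). The mean of the 15 probe sets was 7.73, 7.73, 7.79 and 7.42 at low zinc, against 7.42, 8.10, 8.17 and 8.00 at normal zinc.

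Among the largest rises that were not called were plastid-encoded genes, which were then looked at as a group after their values had been seen and so get no test. Of 84 such loci, 69 were measured, and none was called. Under other settings 14 of the 69 were called with the 8 arrays alone, 17 with array quality weights, 2 with the 12 wild type root arrays, 1 of 29 with probe sets under a mean of 7 left out, and 3 without normal zinc replicate 1 (psaI, psaJ and accD), all higher at low zinc. At low zinc 59 of the 69 were higher and 10 lower, with a median log2 difference of 0.20. The groups did not overlap for 26 that were higher, 37.7% of the 69, against 3.38% of all probe sets, and for 1 that was lower. psaI, a subunit of photosystem I, had 7.83, 7.92, 7.93 and 7.98 at low zinc, against 7.27, 6.70, 5.91 and 6.10 at normal zinc (log2 difference 1.42, SE 0.31, adjusted p 0.0724). petA (cytochrome f) had a difference of 1.18, matK (a maturase) one of 1.18 and rps4 (a ribosomal protein) one of 1.13, with adjusted p-values from 0.24 to 0.364. In the mutant 43 of the 69 were higher at low zinc, 5 were without overlap (7.25%, against 4.00% of all probe sets) and the median was 0.07.

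The mean over the 69 plastid probe sets was 6.95, 7.01, 6.93 and 7.02 on the wild type low zinc arrays, against 6.86, 6.70, 6.59 and 6.42 on the normal zinc arrays, so that the groups did not overlap. Plastid transcripts lack the long poly-A tails that the labelling primes on. The actin 3′ minus 5′ difference given above was also higher on all 4 low zinc arrays, while that of the GAPDH control overlapped between the groups. Nuclear markers of photosynthetic tissue did not separate the groups. Of 17 listed, 3 were measured (PSAN, RCA and CHLM), none was called, and their summed linear level was 784, 783, 734 and 943 at low zinc and 1069, 571, 747 and 672 at normal zinc. Their log2 values lay between 5.84 and 9.53 on these 8 arrays, and the other 14 of the list could not be read by name. The part of tissue mix and of RNA integrity in the plastid values was not tested. With the actin difference as a covariate, 20 probe sets were called in place of 30, and 18 of these were among the 30.

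**Figure D4:**
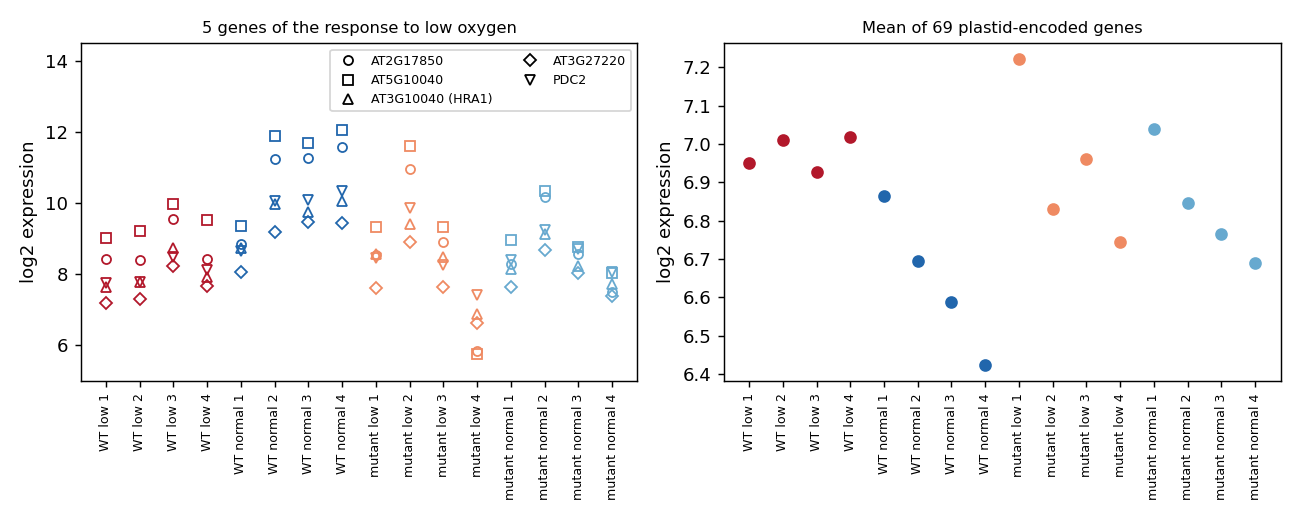
Left, log2 expression by array of 4 genes of the hypoxia list and PDC2; right, the mean log2 expression by array of 69 plastid-encoded genes, in wild type (WT) and double mutant roots at low and normal zinc. Each position on the horizontal axis is 1 array; wild type normal zinc replicate 1 lies below the other 3 of its group on the left, and the wild type groups do not overlap on the right.

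The other uncalled genes with separate groups were of mixed function. Higher at low zinc were STR18, a sulfurtransferase (log2 difference 1.46, adjusted p 0.344), AT3G62930, of the glutaredoxin family (1.38, adjusted p 0.22), AT4G09890 (1.16, adjusted p 0.233) and CCOAMT, a caffeoyl-CoA O-methyltransferase of phenylpropanoid metabolism (1.31, adjusted p 0.0724). CCOAMT had 9.44, 9.50, 8.96 and 9.55 at low zinc, against 8.76, 7.60, 7.59 and 8.25 at normal zinc. Those groups did not overlap, and the mutant difference was 1.17 (adjusted p 0.144). Lower at low zinc were AT3G23170 (-1.61, adjusted p 0.388), AT4G27450 (-1.02, adjusted p 0.109), AT5G42200 (-0.94, adjusted p 0.313), TIL, a temperature-induced lipocalin (-0.92, adjusted p 0.325), and AT1G03610 (-0.86, adjusted p 0.123). In these 5 the normal zinc replicate 1 array was the lowest of its group. With the 8 arrays alone, all of these 9 genes but AT3G23170 were called (adjusted p 0.00714 to 0.0396).

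Lists of other pathways held few named members and no calls in wild type roots. Of 12 plant defensins 9 were measured, with a median log2 difference of -0.05. PDF1.4 had 5.99, 6.37, 6.29 and 6.45 at low zinc, against 5.84, 5.49, 5.80 and 5.60 at normal zinc (log2 difference 0.59, SE 0.14, adjusted p 0.0972), and the other 8 lay between -0.11 and 0.03. Of 17 genes of the jasmonate and wound response 5 were measured. AT5G05600, a jasmonate oxidase (JOX2), had 8.54, 8.41, 8.19 and 8.26 at low zinc, against 7.91, 7.56, 7.93 and 8.06 at normal zinc (log2 difference 0.48, adjusted p 0.0672). In mutant roots it rose by 0.74 (adjusted p 0.00204), a call lost with all 42 arrays (adjusted p 0.132). AR781 had a difference of 0.92 in the mutant (adjusted p 0.0296) and 0.55 in the wild type (adjusted p 0.242). Its mutant call was lost in 9 of 27 alternatives (adjusted p up to 0.2), 6 of which leave out 1 mutant array. With array quality weights PDF1.4, AT5G05600 and AR781 were called in the wild type as well.

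MT1C, a metallothionein, had a log2 difference of 0.03 (adjusted p 0.961). The 2 genes of sulfate starvation measured, AT1G04770 (SDI2) and BGLU28, differed by -0.09 and 0.01, and the clock gene GI by -0.17. The root hair expansins EXPA7 and EXPA18 differed by 0.01 and -0.16, and lay between 7.49 and 8.97 on all 8 wild type arrays. They were the 2 of 14 listed root markers that could be read by name. Of 3 genes often used as expression references, PEX4, AT4G34270 and AT2G28390, which differed by 0.10, -0.02 and 0.01, none was called. No member of the phosphate starvation list or of the list of zinc-dependent enzymes could be read by name.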

How the data were processed

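Total RNA of 42 samples was labelled with biotin and hybridised to ATH1 arrays, per the labels. The deposited table holds 1 log2 value per probe set and array, which the authors made with RMA, per the submitters' processing notes; these name limma too, and neither gives a version; the annotation build is not given in those sources. The number of arrays limits the precision. Of 22810 probe sets, 64 Affymetrix controls were left out of the tests and no filter on dim ones was set. Of the 22746 tested, 13513 (59.4%) were paired with 1 gene in the platform table, 503 with several and 8730 with none, and 13436 matched a locus of the RefSeq table (TAIR10.1, used for names only). Sequences and promoter motifs were not analysed here.

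Groups came from the sample titles. Models were fitted with R 4.3.3 and limma 3.58.1 (default lmFit, contrasts.fit and eBayes) to the 24 root arrays with 1 mean per group, and separately to the 18 shoot arrays. Tests were two-sided, with Benjamini-Hochberg adjustment over 22746 probe sets for each of 5 comparisons, and a call was an adjusted p under 0.05. The fit was tested on simulated data. Plots used Python 3.11.15, pandas 2.3.3 and matplotlib 3.10.9.

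The members and gene lists were chosen with earlier results of these data known. Named were every called probe set with a gene name, the 8 largest rises and 8 largest falls among uncalled ones with 1 gene and separate groups, every measured member of the zinc, copper and cytochrome c oxidase lists, and up to 4 of each other list. The plastid-encoded genes, the calls without wild type normal zinc replicate 1 and the mutant calls were named after their values were seen. Alternatives covered normalisation, arrays in the fit, variance model, array weights, filters, a replicate block, the actin difference as a covariate and each array left out; leaving out each shoot array was chosen after seeing the data.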

Additional observations from a re-analysis of the deposited data

Results flagged for a closer look

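Of 126 sets of 4 arrays examined, 13 held 1 array apart from the other 3 by Dixon's criterion for 4 samples, with chance giving about 1 in 20. Of these, 9 were wild type normal zinc replicate 1. It was at 8.75 for the mean of the 4 hypoxia genes, with the others at 10.55 to 10.79, and at 8.86 for AT2G17850 and 9.36 for AT5G10040 of that list, with the others at 11.25 to 11.59 and 11.7 to 12.06. It was at 8.65 for PDC2 (others 10.05 to 10.34), 6.09 for AT3G23170 (7.88 to 8.06), 6.77 for AT4G31020 (8.43 to 8.67), 10.26 for AT1G03610 (10.79 to 10.82) and 11.52 for probe set N (12.37 to 12.41). For CCS it stood higher, at 9.97, with the others at 9.38 to 9.48.

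Low zinc replicate 3 stood apart for AT3G44840 at 7.50 (others 7.81 to 7.86), for probe set N at 11.01 (others 10.44 to 10.49) and for AT2G17850 at 9.56 (others 8.39 to 8.43). Normal zinc replicate 4 stood apart for AT3G62930 at 5.98 (others 6.81 to 6.84).

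The response to low zinc differed between the genotypes by the limma test of the difference for 4 probe sets. Wild type minus mutant, the responses differed by 2.27 for AT5G33355/AT3G59930, 1.58 for probe set A, 1.48 for probe set B and 0.63 for probe set E.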

How the results depend on the processing

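No log2 difference of a called probe set changed sign under any alternative. Of the 30 wild type calls, 11 held under every alternative that tested them and 19 were lost under at least 1. The wild type count was 164 with the 8 arrays alone, 70 with all 42 arrays, 999 with array quality weights, 78 without excess zinc replicate 2, 9 where a 2-fold difference was also asked for, and 15 to 66 with 1 of the 8 arrays left out. The mutant count of 11 was 39 with all 42 arrays, 120 with array weights, 21 without wild type excess zinc replicate 2, and 5 to 31 with 1 array left out. The wild type shoot count of 160 was 39 to 153 with 1 of the 6 arrays left out, a setting chosen after seeing the data. The cause of these moves was not tested, beyond the smaller number of arrays where some were left out. The 4 differences of responses were 3 to 5 throughout. Titles share replicate numbers between groups, but same-numbered low and normal zinc arrays did not deviate together (correlations 0.03, 0.06, 0.04 and -0.02). No low zinc array correlated best with the normal zinc array of its own number. With the replicate number as a block, 30 probe sets were called in the wild type, 28 of them among the 30, and 8 in the mutant. Probe sets with a log2 level near the background of the arrays are limited by it; with those under 7 left out, 45 were called.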
